A study of Mus musculus with 4 samples.

Results

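Blood vessel endothelial cells of the E14.5 mouse lung were described here, in fetuses whose mothers did or did not carry a working copy of Cyp27a1. A cell was counted as a member when at least 1000 genes were detected in it and when it held at least 1 unique molecular identifier (UMI, one counted RNA molecule) of Cdh5, at least 1 of Pecam1 and at least 2 of Kdr and Cldn5 together. It also had to hold 0 UMIs of Prox1 (lymphatic endothelium), of Epcam (epithelium) and of Ptprc (blood cells). The rule took 452 of the 43351 cells in the 4 libraries of the study, 304 from the library of the null mother and 148 from that of the heterozygous mother. Levels of these 7 genes chose the cells, so they are given only as a description.

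All fetuses were Cyp27a1-/- by their labels, and the groups differed in the mother. One E14.5 library came from fetuses of a Cyp27a1-/- (null) mother and one from fetuses of a Cyp27a1+/- (heterozygous) mother, and another pair of libraries was labelled E18.5 with the same 2 kinds of mother. For the heterozygous mother the E18.5 title also carries a WT tag that its genotype field does not share. Lungs were digested with collagenase and dispase, red cells were lysed, and libraries were made on the 10x Genomics Chromium system; the labels do not state how many fetuses or mothers stand behind a library. With 1 library for each mother at each age, differences between mothers cannot be told apart from differences between these libraries, no test between them was possible, and every interval below is an exact 95% interval for counting error only.

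CYP27A1 is sterol 27-hydroxylase, the mitochondrial enzyme whose product is 27-hydroxycholesterol, a step on the way to bile acids. Endothelial cells line all blood vessels and are kept together by VE-cadherin (Cdh5), PECAM-1 (Pecam1) and claudin-5 (Cldn5), and they respond to vascular endothelial growth factor through VEGF receptor 2 (Kdr). In the fetal lung a capillary plexus grows around the branching airways, arteries are set apart by Notch signalling and connexins, and capillary cells later divide into general capillary cells and the aerocytes that take part in gas exchange.

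The E14.5 libraries held 53293964 UMIs in 4843 cells of the null mother's fetuses and 47005276 UMIs in 4957 cells of the heterozygous mother's. Members were deep cells, with medians of 20814 UMIs and 4696 genes in the null mother's library and 19138 UMIs and 4562 genes in the heterozygous mother's. The other cells with at least 1000 genes had medians of 14705 and 12784 UMIs. Summed over members, 7026891 UMIs of the null mother's library and 3907622 of the heterozygous mother's stand behind the levels below, which are given as CPM, UMIs per 1000000 UMIs of the summed members. The libraries shared 94 cell barcodes, and 20 members of the null mother's library and 13 of the heterozygous mother's carried one. These members were the deepest, with medians of 63864 and 68013 UMIs, while their namesakes in the other library had medians of 609 and 720 UMIs, and 0 of the namesakes were taken by the rule. The E18.5-labelled libraries went against their tissue label by holding liver genes, and they are used only beside the E14.5 cells at the end.

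The members carried the genes of blood endothelium well beyond those of the rule. All 27 pan-endothelial genes of a list that leaves out the rule's genes were measured, and their summed level was 8416 CPM in members of the null mother's library and 7187 CPM in those of the heterozygous mother's. In the other cells with at least 1000 genes the same sums were 599 and 393 CPM. Ranked by the lower of the folds in the 2 libraries (10 CPM added to each level), the 20 leading genes were Cldn5, Emcn, Aplnr, Esam, Cdh5, Pecam1, Icam2, Ecscr, Egfl7, Cd93, Plvap, Kdr, Rasip1, Cd34, S100a16, Clec14a, Ctla2a, Sox17, Gimap1 and Tie1. Cldn5, Cdh5, Pecam1 and Kdr among them are genes of the rule, which chose the cells, so their places are not read. Outside the rule the folds over the other cells reached at least 15.6 for Emcn, first in the order, and 10.7 for Tie1, last in it. Emcn, the sialomucin endomucin of capillary and venous endothelium, stood at 482 CPM in members and 21.5 CPM in other cells of the null mother's library, and at 383 CPM in members and 9.15 CPM in other cells of the heterozygous mother's. Aplnr, the apelin receptor of capillary and venous endothelium, stood at 393 and 383 CPM in members of the null and heterozygous mothers' libraries, against 16.2 and 7.48 CPM in other cells. Since the rule picked cells by endothelial genes, this description carries no test.

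The lung label was checked on transcription factors and on the neighbouring cells. Foxf1, a forkhead factor of lung endothelium and mesenchyme, stood at 130 CPM in members of the null mother's library and 140 CPM in those of the heterozygous mother's, with a UMI in 238 of 304 and 115 of 148 cells. Sftpc, surfactant protein C of distal lung epithelium, stood at 1768 and 318 CPM in the other cells of the 2 libraries, so that both held lung epithelium. Endocardial markers summed to 184 and 245 CPM in members of the null and heterozygous mothers' libraries, against 112 and 115 CPM in the other cells. Most of that sum was Hapln1, a link protein of matrix, at 144 and 187 CPM in members and 10.1 and 6.13 CPM in the other cells, while Npr3 stood at 14.1 and 16.6 CPM and Gata4 at 0.427 and 1.79 CPM in members. Endothelium of vessels outside the lung was not separated.

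Promoters of 4 leading genes are shown because the ETS factors ERG, FLI1 and ETS1, which bind a GGAA core, are known to control endothelial genes. The windows hold the 250 bases before a transcription start in RefSeq (GRCm38.p6), read in the direction of the gene, with capitals on each CNGGAAG (N, any base) on either strand. Emcn lies at chr3:137340828-137341077 on the plus strand, Tie1 at chr4:118489850-118490099 on the minus strand, Clec14a at chr12:58269259-58269508 on the minus strand and Cldn5 at chr16:18776597-18776846 on the plus strand.
Emcn: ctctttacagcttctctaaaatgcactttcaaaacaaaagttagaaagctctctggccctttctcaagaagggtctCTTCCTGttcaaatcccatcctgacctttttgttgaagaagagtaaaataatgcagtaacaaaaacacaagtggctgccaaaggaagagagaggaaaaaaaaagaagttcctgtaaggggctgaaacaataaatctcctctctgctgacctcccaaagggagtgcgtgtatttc
Tie1: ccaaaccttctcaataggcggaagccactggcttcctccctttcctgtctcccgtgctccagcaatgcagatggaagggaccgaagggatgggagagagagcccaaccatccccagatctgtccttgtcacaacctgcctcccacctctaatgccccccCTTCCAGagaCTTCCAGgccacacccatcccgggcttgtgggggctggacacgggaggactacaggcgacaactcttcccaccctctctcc
Clec14a: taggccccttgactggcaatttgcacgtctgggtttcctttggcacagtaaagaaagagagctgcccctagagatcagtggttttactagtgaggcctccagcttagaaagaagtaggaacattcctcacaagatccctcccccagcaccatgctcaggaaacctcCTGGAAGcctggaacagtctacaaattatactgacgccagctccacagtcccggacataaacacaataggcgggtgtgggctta
Cldn5: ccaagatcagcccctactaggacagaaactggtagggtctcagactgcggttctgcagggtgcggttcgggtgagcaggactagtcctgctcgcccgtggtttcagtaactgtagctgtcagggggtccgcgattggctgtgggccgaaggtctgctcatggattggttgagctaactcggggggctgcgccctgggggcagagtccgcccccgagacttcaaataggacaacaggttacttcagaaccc
Of the 20 leading genes, 11 were in the table of promoters, and 8 of those 11 (72.7%) held the motif in at least 1 window, against 29.2% of the 27025 genes of the table. Tie1 held it at 2 places, Emcn and Clec14a at 1 each and Cldn5 at 0. Cldn5 and Kdr, which are genes of the rule, are among the 11 and did not hold it. A match is a run of letters and was not tested as a binding site. Ets1 stood at 229 and 204 CPM, Fli1 at 113 and 99.3 CPM and Erg at 30.2 and 26.4 CPM in members of the null and heterozygous mothers' libraries.

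Few cells lay at the edges of the rule on Kdr and Cldn5 and on the number of genes. Exactly 2 UMIs of Kdr and Cldn5 were found in 9 members of the null mother's library and 4 of the heterozygous mother's, and 9 and 7 cells had exactly 1 and were left out. Members at the edge had Egfl7 at 1093 and 790 CPM, and the cells left out had it at 1191 and 480 CPM. The step on Pecam1 removed more cells. It removed 80 of the 452 cells with at least 1000 genes and a Cdh5 UMI in the null mother's library. In the heterozygous mother's it removed 64 of 256. The step on Epcam removed 36 cells of the null mother's library and 12 of the heterozygous mother's, while 10 and 3 cells passed every step but the number of genes.

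Members made up 6.28% of all cells in the null mother's library (interval 5.61 to 6.997%) and 2.99% in the heterozygous mother's (2.53 to 3.50%), a ratio of 2.10 (1.72 to 2.58). Among cells with at least 1000 genes the shares were 10.1% and 4.98%. Because a deeper cell passes a rule on UMIs more easily, the rule was also applied to cells thinned to 3000 UMIs each; it then took 151 of 2902 cells (5.20%) of the null mother's library and 59 of 2658 (2.22%) of the heterozygous mother's, a ratio of 2.34 (1.72 to 3.22). Without the barcodes found in both libraries the ratio was 2.15 (1.75 to 2.66). The share of a cell type after dissociation depends on how it was released from each lung, which was not tested.

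**Figure D1:**
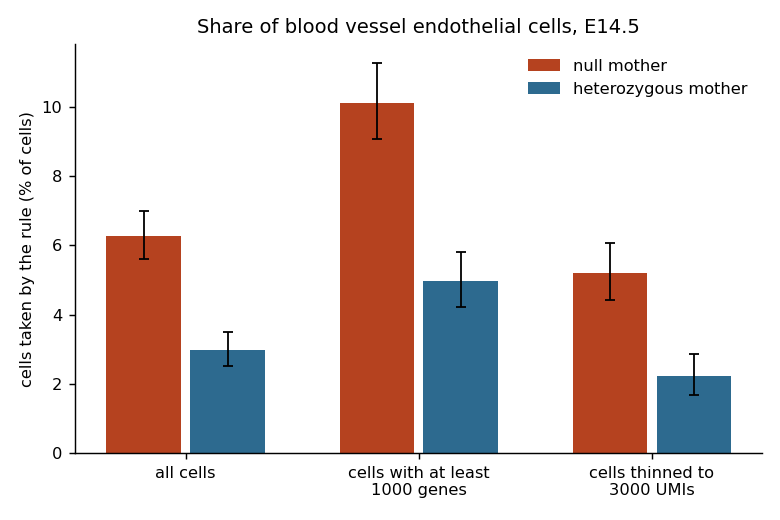
Share of cells taken by the rule, in percent of cells, in the E14.5 libraries of the null mother (left bars) and the heterozygous mother (right bars), over all cells, over cells with at least 1000 genes and after thinning every cell to 3000 UMIs. Whiskers are exact 95% intervals for counting error in 1 library per bar; the null mother's share was 2.10 times the heterozygous mother's over all cells and 2.34 times after thinning.

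Sex could be read from Xist and Y-linked UMIs. Of the members, 75 were male and 188 female in the null mother's library, and 45 were male and 70 female in the heterozygous mother's. The remaining cells were not assigned, and 3 in each library held both kinds of UMI.

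Levels in members were compared between mothers for the 8212 genes with at least 50 UMIs in the library where they were higher. The ratio is given as log2 of the level in the null mother's library over that in the heterozygous mother's, with 10 CPM added to each, and a gene was called when it was past 1.5-fold on that scale. Higher in the null mother's library by this rule were 68 genes, 0.828% of those measured, and lower were 45 genes, 0.548%. The median over all measured genes was 0.03, with 58.0% of genes above 0. Haemoglobin, Xist, Y-linked, mitochondrial, predicted (Gm) and Rik genes were counted here but left out of the rankings. Hbb-bs, given below with the erythroid markers, is therefore not ranked. In male cells alone, where 4580 genes were measured, 2.95% were called higher and 1.09% lower, and in female cells, with 6966 measured, 1.48% and 0.474%.

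The ranked gene with the largest ratio was Gpihbp1, whose protein carries lipoprotein lipase across capillary endothelium. Gpihbp1 stood at 124 CPM (116 to 133) in members of the null mother's library and 38.4 CPM (32.5 to 45.0) in those of the heterozygous mother's, a log2 ratio of 1.47, and had a UMI in 208 of 304 and 58 of 148 cells. After thinning to 3000 UMIs, 26.8% of members (21.8 to 32.2%) and 11.03% (6.44 to 17.3%) held a Gpihbp1 UMI, against 1.23% and 0.586% of the other cells. The difference stood in both sexes, with log2 ratios of 1.84 in male and 1.28 in female cells.

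Several other genes of the 10 largest ratios are membrane or secreted products of endothelium. Scn7a, an atypical sodium channel, stood at 173 CPM (163 to 183) and 64.0 CPM (56.3 to 72.4) in members of the null and heterozygous mothers' libraries, a log2 ratio of 1.30. Sparcl1, a matricellular protein also called hevin, stood at 347 CPM (333 to 361) and 157 CPM (145 to 170), a log2 ratio of 1.10. Thinned to 3000 UMIs, Scn7a was found in 31.4% and 18.6% of members and Sparcl1 in 59.2% and 35.2%; Sparcl1 was also common in the other cells, at 44.5% and 43.2%. Scn7a and Sparcl1 were therefore higher in the null mother's members by the level and by the share of cells.

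Cav1 and Cavin2, of the flask-shaped membrane pits called caveolae, were past 1.5-fold. Cav1, which codes for the coat protein of caveolae, stood at 471 CPM (456 to 488) in members of the null mother's library and 231 CPM (216 to 246) in those of the heterozygous mother's, a log2 ratio of 1.00. Of 2 further caveolar genes, named after their values were seen, Cavin2 was past 1.5-fold at 644 and 398 CPM (log2 ratio 0.68), and Cavin1, at 232 and 175 CPM (0.39), was not. Thinned to 3000 UMIs, 71.2% of members of the null mother's library and 57.2% of the heterozygous mother's held a Cav1 UMI, against 7.47% and 7.20% of the other cells.

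Dnah8, an axonemal dynein heavy chain, stood at 64.9 CPM (59.1 to 71.1) and 24.6 CPM (19.9 to 30.001) in members of the null and heterozygous mothers' libraries, a log2 ratio of 1.12. Pde4b, a phosphodiesterase that breaks down cyclic AMP, stood at 98.1 CPM (90.9 to 106) and 47.3 CPM (40.8 to 54.7), a log2 ratio of 0.91. Lgals9, which codes for galectin-9, stood at 31.6 CPM (27.6 to 36.0) and 12.3 CPM (9.06 to 16.3), a log2 ratio of 0.90. Each of these genes was spread over many cells, with a Dnah8 UMI in 175 of 304 and 50 of 148 members.

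The other 3 genes were also higher in the other cells, and 1 of them rested on few cells. Igfbp7, a secreted binding protein, stood at 55.2 CPM (49.9 to 61.0) and 14.8 CPM (11.3 to 19.2), a log2 ratio of 1.39, but 6 cells of the null mother's library and 2 of the heterozygous mother's held at least 50% of its UMIs, and the other cells had it at 28.0 and 19.2 CPM. Psmb8, a subunit of the immunoproteasome, stood at 25.2 CPM (21.6 to 29.2) and 7.68 CPM (5.18 to 10.96), a log2 ratio of 0.99, and it was also higher in the other cells of the null mother's library, at 31.7 and 12.1 CPM. In members with 5000 to 15000 UMIs the log2 ratio of Psmb8 was -0.12, on fewer than 50 UMIs. Sftpc is a gene of epithelium, and its 130 and 20 UMIs in members (log2 ratio 0.91) came at no more than 3 UMIs and 1 UMI per cell, beside 1768 and 318 CPM in the other cells. The part of RNA from epithelium in that value was not tested.

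**Figure D2:**
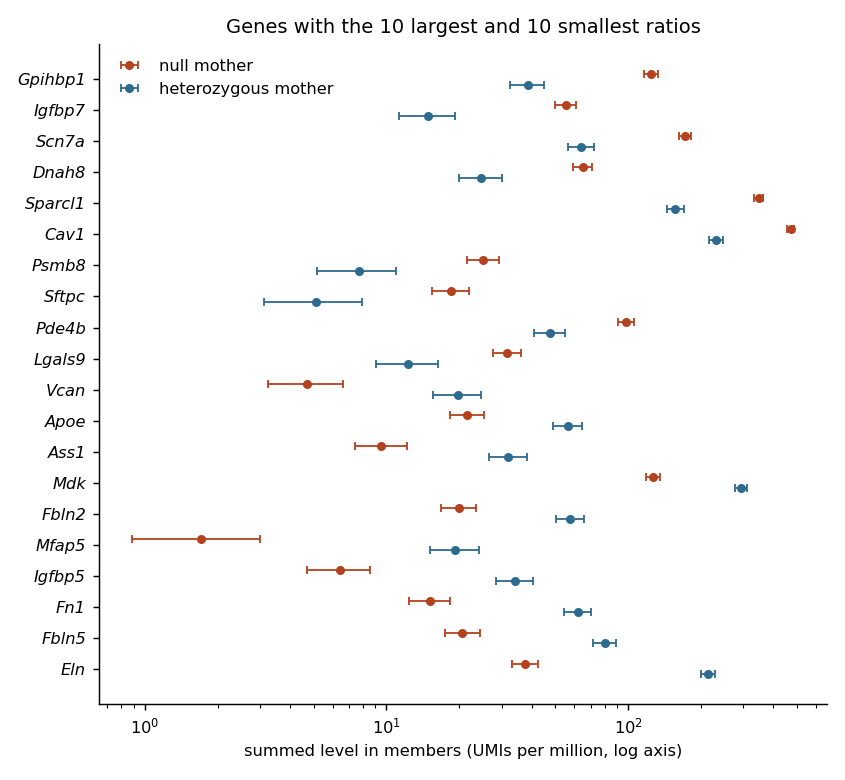
Summed level in members, in CPM on a log axis, of the ranked genes with the 10 largest and 10 smallest log2 ratios, in the E14.5 libraries of the null mother (upper point of each pair) and the heterozygous mother (lower point). Whiskers are exact 95% Poisson intervals; the levels run from 1.71 CPM for Mfap5 to 471 CPM for Cav1, both in the null mother's library.

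The ranked gene with the smallest ratio was Eln, which codes for elastin. Eln stood at 37.4 CPM (33.0 to 42.2) in members of the null mother's library and 214 CPM (200.2 to 230) in those of the heterozygous mother's, a log2 ratio of -2.24. It had a UMI in 36 of 304 and 19 of 148 members, and 2 cells of each library held at least 50% of its UMIs. Fbln5 and Fbln2, fibulins of elastic fibres and the vessel wall, stood at 20.6 and 19.9 CPM in members of the null mother's library and at 80.1 and 57.6 CPM in those of the heterozygous mother's, with log2 ratios of -1.56 and -1.18. Mfap5, a microfibril protein, stood at 1.71 and 19.2 CPM, a log2 ratio of -1.32, with a UMI in 5 and 7 members. In the male cells Eln stood at 33.4 and 636 CPM, and in the female cells at 42.1 and 55.3 CPM. In members with 5000 to 15000 UMIs the log2 ratio of Fbln2 was 0.26.

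Fn1 and Mdk were lower in the null mother's library over more cells. Fn1, which codes for fibronectin, stood at 15.1 CPM (12.4 to 18.2) and 61.9 CPM (54.4 to 70.2) in members of the null and heterozygous mothers' libraries, a log2 ratio of -1.52, with a UMI in 64 of 304 and 54 of 148 cells. Mdk, which codes for the growth factor midkine, stood at 127 CPM (118 to 135) and 293 CPM (277 to 311), a log2 ratio of -1.15, with a UMI in 202 of 304 and 134 of 148 cells. Thinned to 3000 UMIs, 25.4% of members (20.6 to 30.8%) and 46.9% (38.6 to 55.4%) held an Mdk UMI. Mdk was common in the other cells too, at 960 CPM in the null mother's library and 1253 CPM in the heterozygous mother's, and the part of their RNA in the members' value was not tested.

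The remaining genes of the 10 smallest ratios were scarce. Igfbp5, a binding protein of insulin-like growth factors, stood at 6.40 and 34.0 CPM in members of the null and heterozygous mothers' libraries. It had a UMI in 9 of 304 and 17 of 148 members. Vcan, the proteoglycan versican, stood at 4.70 and 19.7 CPM. Ass1, which makes argininosuccinate for arginine synthesis, stood at 9.53 and 32.0 CPM, with a UMI in 45 of 304 and 47 of 148 members. Apoe, the apolipoprotein E gene, stood at 21.6 and 56.3 CPM in members, while the other cells ran the opposite way, at 788 and 447 CPM.

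The 20 genes were read against 20 other ways of processing the cells, which differ in depth, scaling, thresholds or the cells kept. Gpihbp1, Igfbp7, Scn7a, Dnah8, Sparcl1 and Cav1 were past 1.5-fold in the same direction under 20 of 20, as were Fn1, Igfbp5, Mdk and Apoe in the other. The range was 1.24 to 2.31 for Gpihbp1 and 0.71 to 1.07 for Cav1 on the log2 scale, and -1.65 to -0.91 for Mdk. Eln kept its direction under 18 of 20 and ran from -3.90 to 0.37, Fbln5 under 19 and ran from -2.75 to 0.97. Alternatives that keep a subset of the cells share those cells with the reported value.

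**Figure D3:**
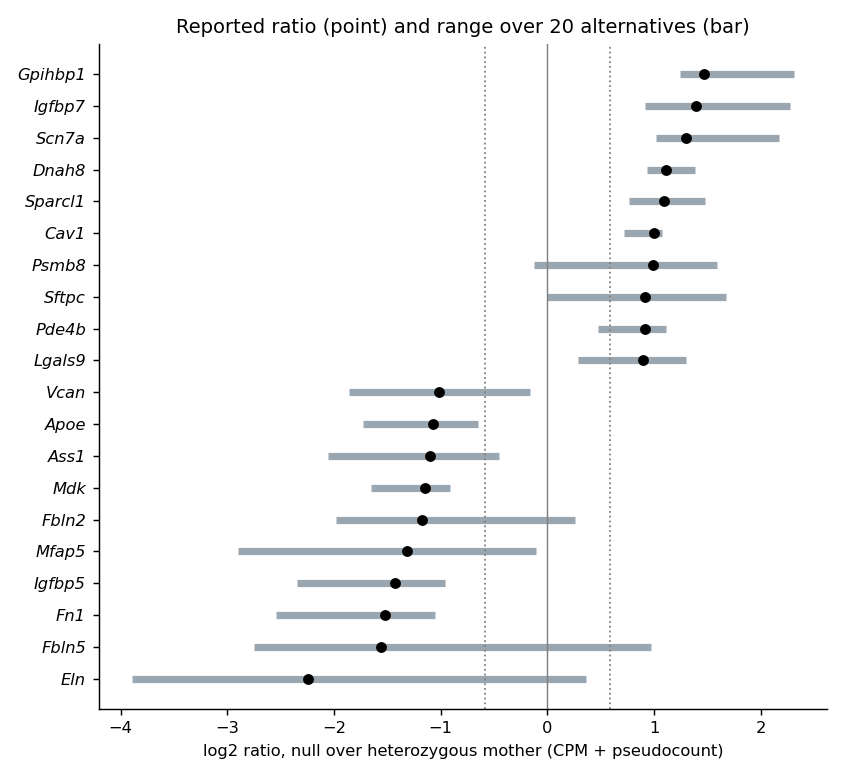
Log2 ratio of the null over the heterozygous mother's library for each of the 20 genes, with the reported value as a point and the range over 20 alternatives as a bar. Dotted lines mark 1.5-fold; the bar of Gpihbp1 runs from 1.24 to 2.31 and stays beyond the line, while the bar of Eln runs from -3.90 to 0.37 and crosses 0.

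Capillary genes were mostly a little higher in the null mother's library. Of 10 general capillary genes 9 were measured, all 9 had a ratio above 0, with a median of 0.26 against 0.03 over all genes, and Gpihbp1 was the 1 past the fold. Beside the counts of this and the following lists stand the shares over all 8212 measured genes. Of those, 58.0% were above 0, 0.828% past the fold upwards and 0.548% past it downwards. Kit, the receptor of stem cell factor, stood at 83.1 and 56.6 CPM and Adgrl4, an adhesion receptor of endothelium, at 44.3 and 26.4 CPM in members of the null and heterozygous mothers' libraries. Aplnr, at 393 and 383 CPM, differed little. Among genes past the fold, chosen after their values were seen, Ace, the angiotensin-converting enzyme, stood at 16.7 and 5.37 CPM, and Abcg2, an efflux transporter, at 125 and 77.0 CPM.

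Markers of aerocytes were scarce at this age. Of 8 aerocyte genes 3 were measured, all 3 below 0, with a median of -0.19. Car4, the carbonic anhydrase of aerocytes, had 2 UMIs in the members of the null mother's library and 1 in those of the heterozygous mother's. Apln, which codes for apelin, stood at 43.8 and 45.8 CPM, and Ednrb, the endothelin receptor B, at 21.9 and 40.4 CPM, a log2 ratio of -0.66 past the fold. In cells without Mki67 or Top2a the log2 ratio of Ednrb was 0.24. The other 5 aerocyte genes were under the minimum of 50 UMIs.

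General endothelial genes were on the whole slightly higher in members of the null mother's library. Of the 27 pan-endothelial genes, 23 had a ratio above 0, with a median of 0.18, and 2 were past the fold. These were Clec14a, an adhesion receptor of vessel sprouting, at 284 and 171 CPM (log2 ratio 0.70), and Ushbp1, at 80.8 and 47.9 CPM (0.65). Among the highest genes of the list, Egfl7, a secreted factor of vessel growth, stood at 1273 and 1134 CPM and Ramp2, the partner of the adrenomedullin receptor, at 1225 and 1106 CPM. Of 22 endothelial transcription factors 21 were measured, 16 of them above 0, with a median of 0.17 and 0 past the fold upwards. Sox17, a factor of arterial fate, stood at 203 and 144 CPM and Epas1, the hypoxia-inducible factor HIF-2 alpha, at 49.0 and 32.5 CPM. Klf2, a factor induced by blood flow, was the 1 past the fold downwards, at 165 CPM in members of the null mother's library and 260 CPM in those of the heterozygous mother's (log2 ratio -0.62).

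The flow genes as a list were split. Of 6 flow genes 2 were above 0, with a median of -0.16. Klf4, its close relative, stood at 48.0 and 60.7 CPM and Nos3, endothelial nitric oxide synthase, at 27.9 and 34.3 CPM in members of the null and heterozygous mothers' libraries. Piezo1, a mechanically gated channel, stood at 42.1 and 30.7 CPM. Klf2 was below 0 under all 20 alternatives, at -1.16 after thinning to 3000 UMIs but within the fold at -0.29 in male cells and at -0.45 without the cells rich in Eln described below. A list of immediate early genes, which tissue digestion can induce, and heat shock genes lay the same way. Of its 13 measured genes 11 were below 0, with a median of -0.21. Fos, at 21.2 and 46.8 CPM, and Fosb, at 8.40 and 19.7 CPM, were past the fold, while in the other cells Fos stood higher in the null mother's library, at 164 and 103 CPM. Whether digestion had a part in these levels was not tested.

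A small arterial group stood out among members of both libraries. A UMI of Gja5, the arterial connexin 40, was found in 21 of 304 members of the null mother's library (6.91%, 4.33 to 10.4%) and in 9 of 148 of the heterozygous mother's (6.08%, 2.82 to 11.2%). Compared with members without Gja5, these cells had high levels of genes that the group was not chosen on, in each library. In the null mother's library Gja4, connexin 37, stood at 1171 CPM in cells with Gja5 and 58.8 CPM in cells without, and Cxcl12, the chemokine that guides arterial growth, at 874 and 25.0 CPM. In the heterozygous mother's library Gja4 stood at 1354 and 23.8 CPM and Cxcl12 at 1226 and 2.98 CPM. Median depth was 19816 UMIs in cells with Gja5 and 20909 in cells without in the null mother's library, and 20350 and 19101 in the heterozygous mother's.

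Notch targets and ligands of arteries followed the connexin. Hey1, a target of Notch, stood at 191 CPM in cells with Gja5 and 11.2 CPM in cells without in the null mother's library, and at 214 and 2.70 CPM in the heterozygous mother's. Efnb2, the arterial ephrin B2, stood at 189 and 15.7 CPM in the null mother's library and at 190 and 13.3 CPM in the heterozygous mother's. Unc5b, a netrin receptor, stood at 246 and 14.6 CPM in the null mother's library and at 152 and 11.6 CPM in the heterozygous mother's. Genes of the capillary and venous lists were split. Aplnr, like Kit, was lower in cells with Gja5, at 32.7 and 425 CPM in the null mother's library. It stood at 4.75 and 404 CPM in the heterozygous mother's. Gpihbp1 was higher with Gja5, at 310 and 107 CPM in the null mother's library. In the heterozygous mother's it stood at 57.0 and 37.3 CPM, a ratio of 1.53 (0.771 to 2.76). Vwf, of the venous list, was higher too, at 86.0 and 22.7 CPM in the null mother's library. In the heterozygous mother's it stood at 252 and 26.5 CPM. Nr2f2 and Emcn of that list were lower in both. Lyve1, of the lymphatic list, was lower, at 25.8 and 176 CPM in the null mother's library. In the heterozygous mother's it stood at 4.75 and 150 CPM. Plvap, of the diaphragms of fenestrae, differed little, at 504 and 456 CPM in the null mother's library and at 437 and 401 CPM in the heterozygous mother's. Groups of 21 and 9 cells are small, and they were chosen after their values were seen.

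**Figure D4:**
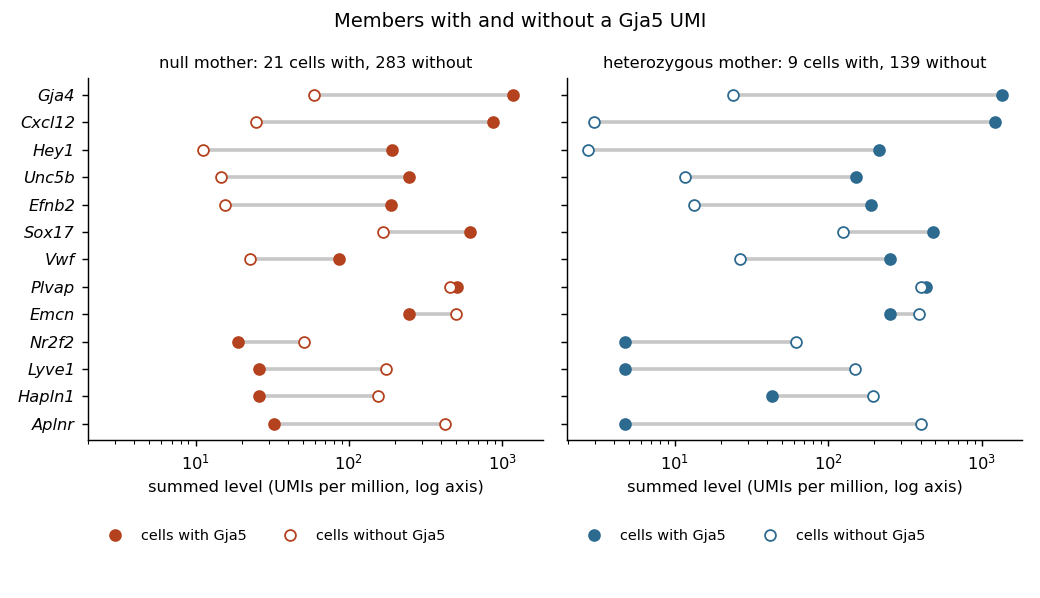
Summed level, in CPM on a log axis, of arterial genes (upper) and of genes from the capillary, venous, lymphatic and endocardial lists (lower). Filled points are members with a Gja5 UMI and open points members without. The E14.5 libraries are those of the null mother (left panel) and the heterozygous mother (right panel). Arterial genes are to the right in cells with Gja5, as Gja4 is at 1171 CPM against 58.8 CPM in the null mother's library. In both panels Aplnr is to the left and Vwf to the right.

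Between mothers the arterial list was mixed. Of 16 arterial genes 14 were measured, 11 of them above 0, with a median of 0.28. Gja4 was past the fold upwards, at 151 and 95.5 CPM in members of the null and heterozygous mothers' libraries (log2 ratio 0.61). That ratio was -0.02 without the barcodes found in both libraries, -0.36 in cells without Mki67 or Top2a and 1.38 without the Eln-rich cells. Linear ratios of Gja4 were 0.865 (0.752 to 0.997) within the cells with Gja5 and 2.47 (1.95 to 3.15) within the cells without. Fbln5, described above, and Mgp, the matrix Gla protein that holds back calcification, were past the fold downwards; Mgp stood at 48.8 and 95.2 CPM, a log2 ratio of -0.84. The log2 ratio of Mgp was 1.35 in members with 0 UMIs of 6 markers of other cell types and 0.0462 in members with 5000 to 15000 UMIs, and the other cells had Mgp at 893 and 691 CPM. Hey1 stood at 26.0 and 14.1 CPM, Unc5b at 33.7 and 19.2 CPM and Jag1, a ligand of Notch, at 7.83 and 14.6 CPM.

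Much of the Fbln5 and Fbln2 of the members stood in a few cells that held Eln. Cells with at least 5 Eln UMIs numbered 5 of 304 (1.64%, 0.536 to 3.80%) in the null mother's library and 8 of 148 (5.41%, 2.36 to 10.4%) in the heterozygous mother's, and 3 of them in each library held a Gja5 UMI. Eln chose these cells, so its own share in them is not read. They carried 77.9% of the Fbln5 UMIs of all members in the null mother's library and 93.6% in the heterozygous mother's, 87.1% and 88.0% of the Fbln2 UMIs, and 41.7% and 90.7% of the Mfap5 UMIs. Within them Fbln5 stood at 1872 CPM in the null mother's library and 1853 CPM in the heterozygous mother's, and Gja4 at 1441 and 1233 CPM. Vwf, von Willebrand factor of larger vessels, stood at 447 CPM in these cells and 24.3 CPM in the other members of the null mother's library, and at 677 and 11.7 CPM in the heterozygous mother's. Gpihbp1 had 0 UMIs in these cells in both libraries. Cldn5, a gene of the rule and so only a description, stood at 1408 CPM in these cells and 844 CPM in the other members of the null mother's library. In the heterozygous mother's it stood at 1259 and 829 CPM. Endothelial genes outside the rule were split. Egfl7 stood at 1259 and 1274 CPM in the null mother's library and at 1379 and 1124 CPM in the heterozygous mother's. Emcn was lower in these cells, at 49.7 and 485 CPM in the null mother's library and at 297 and 387 CPM in the heterozygous mother's.

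Markers of vessel wall muscle were high in the sum of these cells in the null mother's library. Acta2, smooth muscle actin, stood at 2634 CPM and Tagln, transgelin, at 1474 CPM in the Eln-rich cells of the null mother's library, against 108 and 25.3 CPM in those of the heterozygous mother's. Acta2 UMIs were found in 2 of the 5 cells, and 1 cell held at least 50% of the Acta2 UMIs of all members of that library. Whether that cell is a doublet with a muscle cell was not tested. Without the Eln-rich cells, the log2 ratio of Acta2 in members was -0.04, against 0.66 with them. Linear ratios of the null over the heterozygous mother's library, with no CPM added, were also taken without these cells. Fn1 was still lower, at 0.338 (0.256 to 0.445) on 88 and 140 UMIs. Fbln5 stood at 0.861 (0.478 to 1.59) on 32 and 20 UMIs and Fbln2 at 0.359 (0.186 to 0.676) on 18 and 27. Both were under the minimum of 50 UMIs there.

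Venous and lymphatic lists had medians close to 0. Of 9 venous genes 5 were measured, with 2 above 0 and a median of -0.08. Nr2f2, the venous factor COUP-TFII, stood at 48.4 and 58.9 CPM and Ephb4, the receptor of ephrin B2, at 40.0 and 34.5 CPM in members of the null and heterozygous mothers' libraries. Of 9 lymphatic genes 5 were measured, again with 2 above 0 and a median of -0.08. Lyve1, the hyaluronan receptor, stood at 163 and 142 CPM, and Mmrn1, multimerin, at 87.2 and 115 CPM, with a Lyve1 UMI in 38.8% and 29.7% of members thinned to 3000 UMIs and in 2.42% and 2.01% of the other cells.

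The cells that the step on Prox1 removed differed from members in lymphatic genes. Passing every other step but holding a Prox1 UMI were 7 cells of the null mother's library and 11 of the heterozygous mother's. In them Ccl21a, the chemokine of lymphatic vessels, stood at 824 and 3664 CPM, against 0.142 and 0.768 CPM in members. Reln, reelin, stood at 11.5 and 143 CPM in the Prox1 cells and had 0 UMIs in members of both libraries. Lyve1 stood at 158 and 281 CPM in the Prox1 cells, against 163 and 142 CPM in members. The step used Prox1 alone, so the contrast in Ccl21a and Reln rests on genes the rule did not read, though in 18 cells.

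Growth factor receptors of vessels differed by less than the fold. For VEGF, 6 of 9 ligands and receptors were measured, 4 of them above 0, with a median of 0.11. Flt1, VEGF receptor 1, stood at 133 and 117 CPM and Nrp1, the coreceptor neuropilin 1, at 239 and 189 CPM in members of the null and heterozygous mothers' libraries; Kdr, which the rule used, stood at 333 and 265 CPM. For angiopoietins, 4 of 6 were measured and all 4 were above 0, with a median of 0.29. Tie1, an orphan receptor that pairs with Tek, stood at 211 and 152 CPM and Tek, the receptor of angiopoietins, at 86.5 and 79.3 CPM. In both families 0 genes were past the fold.

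Notch and bone morphogenetic protein genes were also within the fold. Of 14 Notch genes 10 were measured, 7 above 0, with a median of 0.22. Notch1 stood at 68.5 and 56.6 CPM, Notch4 at 34.6 and 25.6 CPM and the ligand Dll4 at 31.9 and 26.4 CPM in members of the null and heterozygous mothers' libraries. Of 15 genes of bone morphogenetic protein and ALK1 signalling 12 were measured, 11 above 0, with a median of 0.10. Acvrl1, the receptor ALK1 that is affected in hereditary haemorrhagic telangiectasia, stood at 185 and 120 CPM (log2 ratio 0.58) and its coreceptor Eng, endoglin, at 213 and 178 CPM. Genes of tip cells had 6 of 9 measured above 0 and a median of 0.13, and junction genes 10 of 11 above 0 and a median of 0.14.

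Basement membrane genes were higher as a group, by less than the fold except for Sparcl1. All 13 were measured and 12 were above 0, with a median of 0.18. Col4a1 and Col4a2, the chains of type IV collagen, stood at 990.2 and 444 CPM in members of the null mother's library and at 746 and 326 CPM in those of the heterozygous mother's. Sparc, osteonectin, stood at 1788 and 1332 CPM. The summed level of the list was 4490 CPM in members of the null mother's library and 3418 CPM in those of the heterozygous mother's, against 2239 and 2049 CPM in the other cells.

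**Figure D5:**
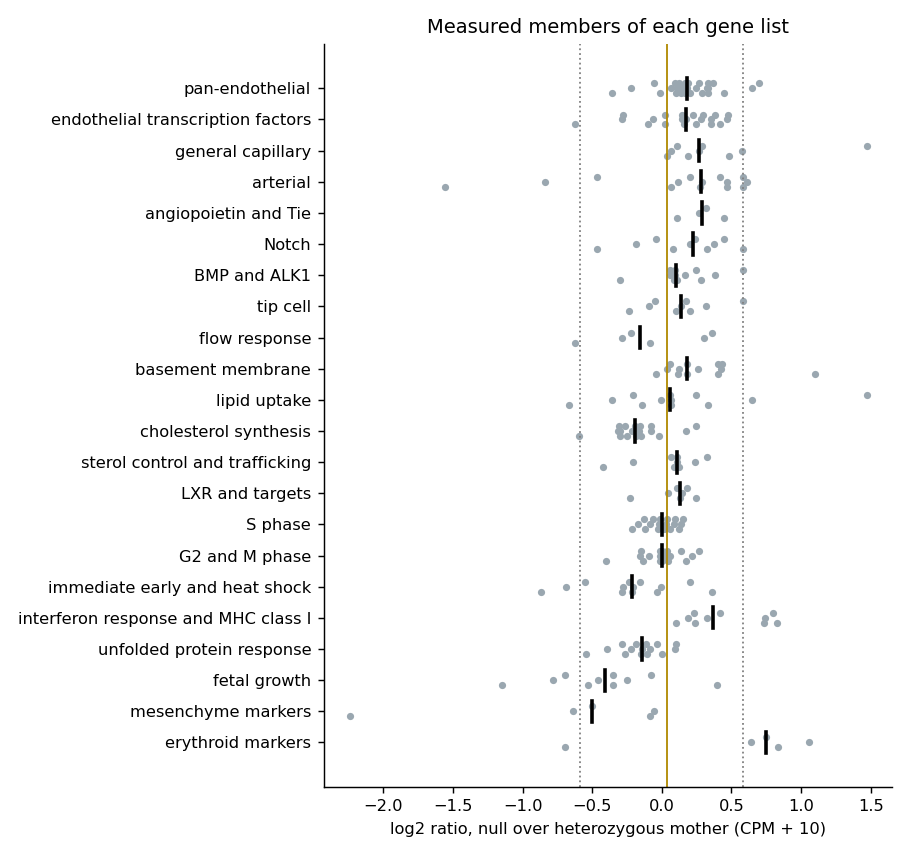
Log2 ratio of the null over the heterozygous mother's library in members, with 1 point for each measured gene of 22 gene lists and a black bar at the list's median. The dotted lines mark 1.5-fold and the solid line the median of all 8212 measured genes, 0.03; list medians run from -0.50 for mesenchyme markers to 0.75 for erythroid markers.

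Genes of fatty acid handling did not move together. Of 14 lipid uptake genes 12 were measured, 7 above 0, with a median of 0.06. That share above 0 was near the 58.0% of all measured genes. Gpihbp1 and Cd36, a fatty acid translocase, were past the fold upwards, with Cd36 at 13.2 and 4.86 CPM in members of the null and heterozygous mothers' libraries (log2 ratio 0.64). Fabp5, a fatty acid binding protein, was past it downwards, at 222 and 359 CPM (log2 ratio -0.67). Lpl, the lipase that GPIHBP1 binds, stood at 13.8 and 12.8 CPM, and Tcf15 and Meox2, which in mouse heart endothelium drive fatty acid uptake, stood at 77.1 and 27.0 CPM in members of the null mother's library and at 73.2 and 27.1 CPM in those of the heterozygous mother's.

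Enzymes of cholesterol synthesis were slightly lower in the null mother's library. Of 20 enzymes 18 were measured, 16 below 0, with a median of -0.19, and Idi1, the isomerase of isopentenyl diphosphate, was the 1 past the fold, at 46.5 and 75.2 CPM in members of the null and heterozygous mothers' libraries (log2 ratio -0.59). Hmgcs1, an early enzyme of the pathway, stood at 86.8 and 111 CPM. Idi1 was at -0.06 after thinning to 3000 UMIs and at 0.27 in cells without Mki67 or Top2a, and the median of the list stayed below 0 in 18 of 18 alternatives, between -0.28 and -0.07. The summed level of the list was 851 CPM in members of the null mother's library and 991 CPM in those of the heterozygous mother's, and in the other cells 821 and 918 CPM.

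In the sterol control and liver X receptor lists 0 genes were past the fold. Insig1, which holds back SREBP processing, stood at 22.5 and 33.5 CPM in members of the null and heterozygous mothers' libraries; 7 of 9 measured genes of that list were above 0, with a median of 0.11. Of the liver X receptor genes 7 of 9 were measured, with 6 above 0 and a median of 0.13; Abca1, the cholesterol exporter, stood at 9.53 and 9.98 CPM and was under the minimum. Cyp27a1 itself stood at 15.4 and 13.8 CPM, with a UMI in 88 of 304 and 41 of 148 members, and it was the 1 measured gene of 8 oxysterol genes. The deleted part of Cyp27a1 is not given in the sources used here, so that these UMIs do not check the genotype. Esr1 and Esr2, oestrogen receptors that 27-hydroxycholesterol can bind, had 0 UMIs in members of both libraries, and 3 UMIs correspond to 0.427 CPM in the null mother's members and 0.768 CPM in the heterozygous mother's.

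Genes of the interferon response and of MHC class I were higher in the null mother's library. Of 14 genes 10 were measured, all 10 above 0, with a median of 0.37, and 4 were past the fold. Over all measured genes 58.0% were above 0 and 0.828% past the fold upwards. Ifitm3, which blocks viral entry, stood at 377 and 208 CPM (log2 ratio 0.83) and Ly6e at 113 and 63.7 CPM (0.74) in members of the null and heterozygous mothers' libraries. H2-K1, the MHC class I heavy chain, stood at 20.4 and 7.42 CPM (0.80), and Ly6a, known as Sca-1, at 21.5 and 8.96 CPM (0.73), with at least 50% of the Ly6a UMIs in 2 cells and 1 cell. In male cells the log2 ratio of Ly6a was -0.50, and it was -0.16 in members with 5000 to 15000 UMIs. Interferon-induced Ifit1 and Ifit3 had 0 UMIs in members of both libraries. The other cells of the null mother's library also had more of H2-K1 and Ifitm3, with H2-K1 at 31.5 and 12.0 CPM and Ifitm3 at 173 and 108 CPM.

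Cell cycle genes lay around 0 as groups. All 18 S phase genes and all 18 G2 and M phase genes were measured, with medians of 0.00 and 0 past the fold in either direction. Top2a, the topoisomerase of dividing cells, stood at 421 and 420.2 CPM, and Mki67, the proliferation antigen, at 259 and 229 CPM in members of the null and heterozygous mothers' libraries. After thinning to 3000 UMIs, 59.2% of members of the null mother's library (53.4 to 64.8%) and 67.6% of the heterozygous mother's (59.3 to 75.1%) held a UMI of Mki67 or Top2a, and without thinning 84.6% and 84.1%. In the other cells the thinned shares were 50.6% and 54.8%, and the part of free RNA in these shares was not tested.

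Of 12 fetal growth genes 10 were measured and 9 of these were below 0, with a median of -0.41. In cells without Mki67 or Top2a that median was 0.19. By the fold, 3 were lower in the null mother's library, namely Mdk, Igf2 and Dlk1. Among members with 5000 to 15000 UMIs the log2 ratio of Dlk1 was 0.17. Igf2, insulin-like growth factor 2, stood at 3.27 and 12.8 CPM and Dlk1, a Notch-like protein of mesenchyme, at 4.41 and 13.3 CPM in members of the null and heterozygous mothers' libraries. H19, the imprinted RNA next to Igf2, stood at 168 and 218 CPM, Igf2bp1, an RNA-binding protein of fetal cells, at 71.0 and 93.4 CPM, and Hmga2, a chromatin protein of growing cells, at 42.0 and 65.0 CPM. Peg3, another imprinted gene, ran the other way, at 184 and 138 CPM. Dlk1 stood at 407 and 510.4 CPM in the other cells, and the part of their RNA was not tested.

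Of 16 unfolded protein response genes 15 were measured, 12 below 0, with a median of -0.14 and 0 past the fold. The median was 0.11 in members with 5000 to 15000 UMIs. The list summed to 4744 and 5408 CPM in members and to 5379 and 6128 CPM in the other cells of the null and heterozygous mothers' libraries. Hspa5, the chaperone BiP, stood at 749 and 915 CPM and Manf, a secreted stress factor, at 262 and 388 CPM in members of the null and heterozygous mothers' libraries. Glycolysis and hypoxia genes, as 1 list, had 10 of 14 measured above 0 and a median of 0.08, with 0 past the fold.

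Markers of other cell types were read in the members as a whole. Of 11 mesenchyme markers 5 were measured, all 5 below 0, and the list summed to 118 CPM in members of the null mother's library and 338 CPM in those of the heterozygous mother's, of which Eln was 37.4 and 214 CPM; Col3a1 stood at 19.9 and 36.6 CPM. Of 8 mural markers 2 were measured, Acta2 and Tagln, both past the fold upwards, and the log2 ratio of Tagln was -0.28 in male cells, -0.0662 in members with 5000 to 15000 UMIs and -0.12 without the Eln-rich cells; the list summed to 63.8 and 33.3 CPM in members, against 1445 and 1516 CPM in the other cells. Epithelial markers summed to 29.3 and 16.9 CPM, macrophage markers to 5.12 and 3.58 CPM, platelet markers to 9.96 and 7.42 CPM, heart muscle markers to 35.3 and 40.4 CPM and mesothelial markers to 1.28 and 1.02 CPM in members of the null and heterozygous mothers' libraries. At 0 UMIs in both libraries were Myh7 of heart muscle and Upk1b and Msln of mesothelium. Erythroid markers summed to 326 and 179 CPM in members and to 1864 and 759 CPM in the other cells; Hbb-bs, an adult beta globin, stood at 143 and 63.7 CPM in members, while Hbb-y, an embryonic one, was lower in the null mother's library, at 11.4 and 24.6 CPM. The part of these cells' RNA in the differences between members was not tested. In members with 0 UMIs of Col1a1, Col3a1, Dcn, Sftpc, Myl7 and C1qa, Mdk, Fn1, Igfbp5 and Apoe were still past the fold downwards, and Eln stood at a log2 ratio of 0.37. Vcan was within the fold in those members, at a log2 ratio of -0.16.

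The same rule in the E18.5-labelled libraries took another kind of endothelium. It took 215 cells of the null mother's library and 214 of the heterozygous mother's. Set beside the E14.5 members, Stab2, the hyaluronan receptor of sinusoids, stood at 20.6 and 14.1 CPM in E14.5 members of the null and heterozygous mothers' libraries and at 784 and 755 CPM in the E18.5-labelled cells. Clec4g, a lectin of liver sinusoids, had 0 UMIs in E14.5 members and stood at 462 and 337 CPM in the E18.5-labelled cells. Foxf1, at 130 and 140 CPM in E14.5 members, had 0 and 2 UMIs in the E18.5-labelled cells, and Aplnr, at 393 and 383 CPM, stood at 19.2 and 27.6 CPM. Alb, albumin of hepatocytes, had 0 UMIs in E14.5 members and stood at 2559 and 354 CPM in the E18.5-labelled cells. Age, tissue and library cannot be told apart between these sets. Of the E18.5-labelled cells, 73 were male and 76 female in the null mother's library. In the heterozygous mother's 110 were male and 0 female, so that the mothers' cells there also differ in sex.

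Gpihbp1 was high in both E18.5-labelled libraries. It stood at 124 and 38.4 CPM in E14.5 members of the null and heterozygous mothers' libraries and at 936 and 934 CPM in the E18.5-labelled cells, where its log2 ratio between mothers was 0.00. In the E18.5-labelled cells 3868 genes were measured, and 2.92% were called higher and 5.27% lower in the null mother's library.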

How the data were processed

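Single-cell RNA sequencing of fetal mouse cells was read from 1 deposited matrix of UMI counts, 31053 genes by 43351 cells, in which the authors kept whole-number counts for all 4 libraries together. Cell Ranger 3.0.0, Seurat 4.3.0 and the mm10 build are named, per the submitters' processing notes; the role of each tool and its filters are not given in the sources used here. The deposited lists of genes and of cells carry each other's names and were told apart by their contents, and cells were assigned to libraries by the library names in the deposited cell table, which stand in the sample titles. No doublet caller was run.

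Counts of members were summed per library and divided by their total (CPM). A gene was measured when the library where its CPM was higher held 50 UMIs or more, and log2 ratios used 10 CPM added to each level. Levels have exact Poisson intervals, shares have Clopper-Pearson intervals and ratios have exact conditional binomial intervals, all at 95%; they cover counting error only. With 1 library per group there was no test. The share of cells with a UMI was computed after thinning to 3000 UMIs. Genes named are the 10 largest and 10 smallest ratios, the 20 leading genes against other cells and the members of 37 gene lists. Exceptions are named as such. Haemoglobin, Xist, Y-linked, mitochondrial, predicted (Gm) and Rik genes were left out of both rankings, the one by ratio and the one against other cells. The members, lists and alternatives were chosen with earlier results of these data known. Alternatives changed the scaling, the added CPM, the minimum of UMIs, the depth, the rule or the cells kept. Gene positions and promoters are from GENCODE and RefSeq on the mm10 (GRCm38) build. Python 3.11.15, numpy 2.4.6, scipy 1.17.1, pandas 2.3.3 and matplotlib 3.10.9 were used, and the computation was tested on simulated counts.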

Additional observations from a re-analysis of the deposited data

Results flagged for a closer look

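Differences between the mothers' libraries ran one way at E14.5 and the other way in the E18.5-labelled cells of the same rule for 4 of the 20 genes with the largest and smallest ratios, each past 1.5-fold at both. The log2 ratio of Cav1 was 1.00 in E14.5 members and -1.25 in the E18.5-labelled cells, where 27 and 73 UMIs stand behind it in the null and heterozygous mothers' libraries. The log2 ratio of Sparcl1 was 1.10 at E14.5 and -0.75 in the E18.5-labelled cells. The log2 ratio of Fn1 was -1.52 at E14.5 and 0.67 in the E18.5-labelled cells, there on 105 and 55 UMIs. For Ass1 it was -1.10 and 1.78, the latter on 80 and 13 UMIs. Alb, of hepatocytes, stood at 2559 and 354 CPM in the E18.5-labelled cells of the null and heterozygous mothers' libraries. The part of hepatocyte RNA in these ratios was not tested. Apoe also turned there, within the fold, at 0.30 on 4963 and 3620 UMIs. Dnah8 (-0.27), Pde4b (-0.20) and Vcan (0.16) turned on fewer than 50 UMIs. Gpihbp1 was at 0.00, and Scn7a and Sftpc had 0 UMIs in the E18.5-labelled cells. Eln (-3.95), Fbln2 (-3.22) and Fbln5 (-3.14, on 0 and 88 UMIs) ran the same way at both, past the fold. Igfbp7, Psmb8 and Lgals9 also kept their direction, within the fold in the E18.5-labelled cells. Igfbp5, Mfap5 and Mdk did so on fewer than 50 UMIs. These were 20 and 27 for Igfbp5, 0 and 2 for Mfap5 and 0 and 5 for Mdk in the null and heterozygous mothers' libraries. Fbln5 differed between sexes, with a log2 ratio of -2.75 in male and 0.97 in female E14.5 members, and 2 cells of each library held at least 50% of its UMIs. None of these differences was tested, since each library is 1 sample, and the E18.5-labelled libraries hold liver genes and, in the heterozygous mother's, 110 male and 0 female cells by the rule.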

How the results depend on the processing

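The share of members was higher in the null mother's library under all 6 alternatives tried for it, with ratios from 2.03 to 2.34. None of the 6 left out the step on Pecam1. Counts of genes past 1.5-fold were 68 higher and 45 lower as reported. They became 324 higher and 114 lower with 1 CPM added in place of 10, and 18 lower with a minimum of 200 UMIs. With a mean over cells 81 were lower, and after thinning to 3000 UMIs 112 were higher. In cells with 5000 to 15000 UMIs 153 were higher, in cells without Mki67 or Top2a 124 were higher and 71 lower, in male cells 135 were higher and in female cells 103. Fewer cells or UMIs per gene stand behind the last 5 of these settings.

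Direction turned in cells with 5000 to 15000 UMIs for the log2 ratio of Psmb8 (-0.12), the log2 ratio of Fbln2 (0.26), the log2 ratio of Mgp (0.0462), the log2 ratio of Idi1 (0.0043), the log2 ratio of Ly6a (-0.16), the log2 ratio of Dlk1 (0.17) and the log2 ratio of Tagln (-0.0662). It turned in cells with 0 UMIs of 6 markers of other cell types for the log2 ratio of Eln (0.37) and for Mgp (1.35), in cells without Mki67 or Top2a for the log2 ratio of Ednrb (0.24), the log2 ratio of Gja4 (-0.36) and Idi1 (0.27), in male cells for Ly6a (-0.50) and Tagln (-0.28), and in female cells for the log2 ratio of Fbln5 (0.97). Another 5 alternatives were chosen after seeing the data. Of these, leaving out barcodes found in both libraries turned Gja4 (-0.0177), and leaving out the Eln-rich cells turned the log2 ratio of Acta2 (-0.0428), Tagln (-0.12) and Eln (0.0616), the gene those cells were chosen on. Some of these genes had fewer than 50 UMIs under the setting, and the cause was not tested. No paired analysis was possible because each group has 1 library.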

Other observations

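Among the genes higher in members of the null mother's library, Dnah8, H2-K1 and Psmb8 lie on chromosome 17, where Dnah8 starts at base 30624354, H2-K1 at base 33996017 and Psmb8 at base 34197721 (mm10). H2-K1 and Psmb8 were also higher in the other cells of that library, at 31.5 and 31.7 CPM in the null mother's library and 12.0 and 12.1 CPM in the heterozygous mother's. In the E18.5-labelled cells of the same rule they stood at 84.1 and 84.9 CPM in the null mother's library and at 67.7 and 71.3 CPM in the heterozygous mother's. Dnah8 stood at 4.32 and 1.37 CPM in the other cells of the E14.5 libraries and at 7.21 and 10.7 CPM in the E18.5-labelled cells. Of the 400 measured genes of chromosome 17, 5 (1.25%) were called higher in E14.5 members, against 0.828% of all 8212 measured genes. On the other chromosomes the share ran from 0%, as on chromosome 16, to 1.55% on chromosome 7. The 3 genes were singled out after their values were seen.

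Other genes past the fold were named after their values were seen. Phgdh, which opens serine synthesis, stood at 69.4 CPM in members of the null mother's library and 133 CPM in those of the heterozygous mother's (log2 ratio -0.85). The chaperone genes Hspd1, at 524 and 802 CPM (-0.61), and Hsph1, at 41.8 and 73.7 CPM (-0.69), were past the fold too. Ptn, pleiotrophin, a relative of midkine, stood at 11.1 and 22.3 CPM (-0.61). Higher in the null mother's library were Txnip, at 152 and 95.2 CPM (0.63), and Rgs2, a regulator of G protein signalling, at 182 and 96.7 CPM (0.85).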
